A study of Mus musculus with 13 samples.

Results

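The genes described here are 10 receptors and receptor adaptors by which myeloid cells sense antibody-coated and microbial material: the Fc gamma receptors *Fcgr1*, *Fcgr3*, *Fcgr4* and *Fcgr2b*, the signalling adaptors *Fcer1g* and *Tyrobp*, the C-type lectin receptors *Clec4d*, *Clec4e* and *Clec7a*, and the scavenger receptor *Msr1*. They were chosen by symbol, and all 10 were found among the 47643 genes counted. RNA was sequenced from the isolated brain vasculature of 13 male CD1 mice aged 8 to 10 weeks, an outbred stock, with 1 library per mouse. The 4 sham-vehicle mice received no LPS and no CPD-4645. The 5 LPS-vehicle mice were injected intraperitoneally with 3 mg/kg of LPS from Salmonella enterica typhimurium at 0, 6 and 24 h. The 4 LPS-CPD-4645 mice had the same LPS and, after each dose, 10 mg/kg subcutaneous CPD-4645, an inhibitor of monoacylglycerol lipase, the enzyme that breaks down the endocannabinoid 2-AG. The delay between LPS and CPD-4645 is given differently in different places of the paper and is left out here. Tissue was taken 28 h after the first LPS injection. No group was given CPD-4645 without LPS. The brains were not perfused, so blood in the vessels was not washed out beforehand.

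Fc gamma receptors bind the constant part of IgG. *Fcgr1*, *Fcgr3* and *Fcgr4* are activating receptors that signal through the shared chain encoded by *Fcer1g*, whose tyrosine motif (the ITAM) recruits the kinase Syk, whereas *Fcgr2b* carries an inhibitory motif (the ITIM) that recruits the phosphatase Inpp5d. *Tyrobp* (DAP12) is the ITAM adaptor of Trem and related receptors. *Clec4d* (MCL) and *Clec4e* (Mincle) pair with *Fcer1g* and bind mycobacterial glycolipids, *Clec7a* (Dectin-1) binds fungal beta-glucan, and *Msr1* takes up modified lipoproteins and bacterial lipids. In the brain these genes are known from microglia, perivascular macrophages and blood leukocytes.

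On GRCm38, 4 of the genes lie close together on chromosome 1: *Fcgr2b* (chr1:170958617-170976547, minus strand), *Fcgr4* (chr1:171018920-171029761, plus strand), *Fcgr3* (chr1:171051174-171064935, minus strand) and *Fcer1g* (chr1:171229572-171234365, minus strand). *Clec4d* (chr6:123262111-123275265, plus strand) and *Clec4e* (chr6:123281789-123289870, minus strand) are neighbours on chromosome 6, which also holds *Clec7a* (chr6:129461591-129472779, minus strand). *Fcgr1* (chr3:96282909-96293969, minus strand), *Tyrobp* (chr7:30413760-30417585, plus strand) and *Msr1* (chr8:39581685-39642673, minus strand) stand alone. The annotation used for these positions (GENCODE M21) lists *Clec7a* as a polymorphic pseudogene and the other 9 as protein coding.

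Promoter sequences of 8 of the 10 genes were found in RefSeq (build GRCm38.p6), and 160 bases before the start site are shown for 6 of them: the Fc gamma receptors, *Fcer1g* as the signalling chain of the activating ones, and *Clec4e* as an example of the lectins. Capitals mark matches, on either strand, to the ETS core GAGGAA (reverse TTCCTC), to the STAT palindrome TTCNNNGAA and to an NF-kB sequence of GGGA, 4 bases of any kind and CC (in reverse GG, 4 bases of any kind and TCCC). No matches to different motifs overlapped. The stretches are chr3:96293970-96294129 (minus strand) for *Fcgr1*, chr1:171059404-171059563 (minus strand, the first of a pair of RefSeq entries) for *Fcgr3*, chr1:171018766-171018925 (plus strand) for *Fcgr4*, chr1:170976072-170976231 (minus strand) for *Fcgr2b*, chr1:171234350-171234509 (minus strand) for *Fcer1g* and chr6:123289872-123290031 (minus strand) for *Clec4e*.
Fcgr1: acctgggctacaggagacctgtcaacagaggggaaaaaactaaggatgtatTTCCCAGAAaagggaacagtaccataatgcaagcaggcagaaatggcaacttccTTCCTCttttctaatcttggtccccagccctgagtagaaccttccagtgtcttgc
Fcgr3: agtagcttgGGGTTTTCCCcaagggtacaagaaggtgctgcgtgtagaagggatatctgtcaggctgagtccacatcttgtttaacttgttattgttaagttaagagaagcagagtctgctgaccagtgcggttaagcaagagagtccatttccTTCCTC
Fcgr4: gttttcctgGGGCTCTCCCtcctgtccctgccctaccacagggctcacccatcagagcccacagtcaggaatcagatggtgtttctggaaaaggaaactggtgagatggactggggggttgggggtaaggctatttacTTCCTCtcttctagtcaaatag
Fcgr2b: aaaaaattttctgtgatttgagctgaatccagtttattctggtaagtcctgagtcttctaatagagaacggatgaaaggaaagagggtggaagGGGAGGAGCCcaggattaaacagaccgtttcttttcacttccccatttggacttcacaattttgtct
Fcer1g: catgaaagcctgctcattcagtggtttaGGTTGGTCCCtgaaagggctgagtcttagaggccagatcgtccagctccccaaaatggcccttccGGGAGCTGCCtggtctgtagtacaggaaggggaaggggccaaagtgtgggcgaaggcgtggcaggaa
Clec4e: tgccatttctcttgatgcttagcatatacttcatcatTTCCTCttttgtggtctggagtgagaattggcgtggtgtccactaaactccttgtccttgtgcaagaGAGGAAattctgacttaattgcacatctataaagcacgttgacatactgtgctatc

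Over the whole window of 300 bases around the start site, the ETS core was found in 6 of the 8 members with an entry, *Fcgr1*, *Fcgr3*, *Fcgr4*, *Clec4d*, *Clec4e* and *Clec7a*, and in 28.3% of all 32851 promoters of that length. The STAT palindrome was found in *Fcgr1* alone of the 8, at position -109 from the start site, and in 8.3% of all promoters. The NF-kB sequence was found in *Fcgr3*, *Fcgr4*, *Fcgr2b* and *Fcer1g* and in 20.7% of all promoters. In *Fcgr4* the NF-kB sequence lay at position -151 and an ETS core at -22. In *Fcgr3* they lay at -151 and -6 for the RefSeq entry shown and at -160 and -15 for the other entry. For *Fcgr2b* and *Fcer1g* the NF-kB sequence lay at -67 in both, and no ETS core was found in either window. These are matches of letters and not binding sites.

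Total counts ran from 7813559 to 55133373 per library, and the shallowest libraries came from LPS-vehicle mouse 3 and from mouse 1 of the LPS-CPD-4645 group. They had the highest level of their group for 5 and 6 of the 9 tested members, as sham-vehicle mouse 1, a deeper library, had for 6. Counts of members are given below with and without the 2 shallowest libraries. Endothelial marker genes summed to between 436 and 1060 CPM per mouse and pericyte and smooth muscle markers to between 210.0 and 414 CPM, while neuron markers summed to between 8470 and 11800 CPM, so the preparation held neuronal RNA besides that of vessels. Levels are given as CPM, counts scaled to library size, with library sizes scaled by TMM. A gene passed when its edgeR quasi-likelihood test gave p of at most 0.05 after Benjamini-Hochberg adjustment over all 17285 genes tested, with a change of at least 2-fold. The p-values measure the spread between these mice, for which the labels give no litter or batch.

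LPS raised every member that could be tested. All 9 passed as higher in LPS-vehicle than in sham-vehicle mice and none as lower, where 4.68% and 0.995% of all genes tested did so. The changes ran from 1.29 for *Tyrobp* to 6.72 for *Clec4e* on the log2 scale, with a median of 2.72 beside -0.00065 over all genes. In all 9 the lowest LPS-vehicle mouse lay above the highest sham-vehicle mouse, as was so for 9.68% of all genes. The count was again 9 without the 2 shallowest libraries. *Clec7a* had too few counts to be tested. In sham-vehicle libraries *Clec4d* and *Clec4e* had at most 6 and 4 counts, below the minimum count of 10 of the filter on low counts. *Fcgr4* reached it only in sham-vehicle mouse 1 and *Msr1* only in mice 1 and 2. These genes passed the filter through LPS-treated libraries, so being tested and being higher than sham-vehicle are not independent for them. This holds for both comparisons with sham-vehicle. Without that filter the count was again 9. In bulk RNA a larger number of cells of a type and more RNA per cell cannot be told apart.

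LPS-CPD-4645 mice were compared with LPS-vehicle mice, and this comparison is called the change after CPD-4645. The same 9 genes stood below their LPS-vehicle level, and 4 of them fell past the threshold: *Fcgr2b*, *Tyrobp*, *Clec4d* and *Msr1*. None rose. Over all genes 4.19% fell and 1.70% rose in this comparison. The median change was -1.13 on the log2 scale, beside -0.023 over all genes, with a range from -1.59 for *Clec4d* to -0.48 for *Fcgr4*. Of the 9, *Tyrobp* and *Msr1* had groups that did not overlap, both with LPS-CPD-4645 the lower, as did 11.97% of all genes in that direction. The number that fell was 2 without LPS-CPD-4645 mouse 3, when *Fcgr2b* and *Clec4d* no longer passed, and 6 without LPS-CPD-4645 mouse 1, when *Fcgr3* and *Fcer1g* passed as well. It was 4 without the 2 shallowest libraries, with *Fcgr3* in place of *Clec4d*.

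Between LPS-CPD-4645 and sham-vehicle mice, 7 of the 9 genes were still higher and none was lower, where 6.11% of all genes were higher and 4.98% lower. The same 7 had groups that did not overlap, as did 18.7% of all genes in that direction, and the median change over the 9 was 1.56 on the log2 scale beside -0.014 over all genes. The exceptions were *Fcgr3* and *Tyrobp*. Without the 2 shallowest libraries the count was 6, since *Fcer1g* fell under 2-fold. The 3 comparisons share mice in pairs and are not independent of each other.

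**Figure D1:**
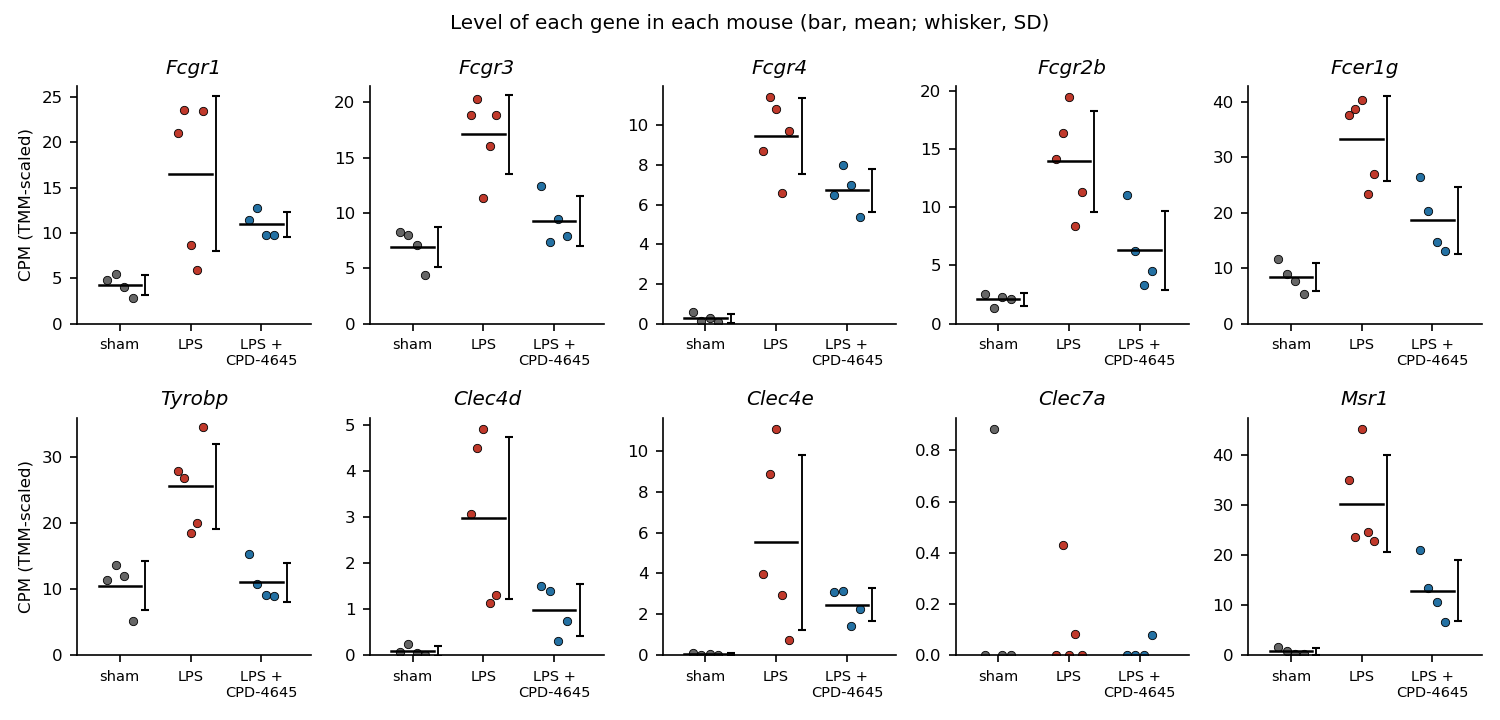
CPM of each of the 10 genes (vertical axes, linear, TMM-scaled) in each of the 13 mice by group; each point is 1 mouse, the bar is the group mean and the whisker the SD, which are left out for *Clec7a*. In every panel but that of *Clec7a* all 5 LPS-vehicle mice lie above all 4 sham-vehicle mice.

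*Fcgr4*, an activating receptor for IgG2a and IgG2b, had the largest rise among the Fc gamma receptors. Sham-vehicle mice 1 to 4 had 0.571, 0.121, 0.279 and 0.0988 CPM, from no more than 20 counts in a library. LPS-vehicle mice 1 to 5 had 8.69, 11.4, 10.8, 6.57 and 9.72 CPM. LPS-CPD-4645 mice 1 to 4 had 6.48, 8.01, 7.001 and 5.38 CPM. The 2 LPS-treated groups overlapped, and both lay far above sham. The rise after LPS was 4.99 on the log2 scale (SE 0.35, edgeR adjusted p = 2.3e-08), or 31.8-fold. LPS-CPD-4645 differed from LPS-vehicle by -0.48 (SE 0.26, adjusted p = 0.17, 95% interval from -1.03 to 0.06) and from sham-vehicle by 4.51 (SE 0.36, adjusted p = 5.9e-08). Without sham-vehicle mouse 1, which held 20 of the 32 sham-vehicle counts, the rise was 5.75 and the difference of LPS-CPD-4645 from sham-vehicle 5.27. None of these calls changed in any alternative run.

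*Fcgr1*, the high-affinity IgG receptor, was more uneven in the LPS-vehicle group than any other Fc gamma receptor. Its levels there were 21.0, 23.6, 8.70, 5.89 and 23.5 CPM in mice 1 to 5, so that mice 3 and 4 lay well below the other 3. Sham-vehicle mice had 4.76, 5.47, 4.02 and 2.82 CPM, and LPS-CPD-4645 mice had 11.5, 12.7, 9.79 and 9.81 CPM. The 4 LPS-CPD-4645 mice fell inside the range of the LPS-vehicle mice. *Fcgr1* rose by 1.97 on the log2 scale after LPS (SE 0.34, edgeR adjusted p = 0.0004). LPS-CPD-4645 differed from LPS-vehicle by -0.61 (SE 0.32, adjusted p = 0.16, 95% interval from -1.29 to 0.06), with values over the alternatives from -0.84 without LPS-vehicle mouse 4 (adjusted p = 0.019) to -0.27 with a replicate block (adjusted p = 0.43), all under 2-fold. It was higher than sham-vehicle by 1.35 (SE 0.35, adjusted p = 0.0053).

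*Fcgr3*, a low-affinity activating receptor, was already present without LPS and rose less. Sham-vehicle mice had 8.30, 8.00, 7.09 and 4.34 CPM, LPS-vehicle mice 18.9, 20.3, 11.3, 16.0 and 18.9 CPM, and LPS-CPD-4645 mice 12.4, 7.38, 9.45 and 7.93 CPM. LPS-CPD-4645 mouse 1 exceeded LPS-vehicle mouse 3, and apart from these 2 shallow libraries the LPS-treated groups did not overlap. The rise after LPS was 1.31 on the log2 scale (SE 0.21, edgeR adjusted p = 0.00019). LPS-CPD-4645 mice differed from LPS-vehicle mice by -0.90 (SE 0.21, adjusted p = 0.0033), which is under 2-fold. That difference was -1.01 without LPS-vehicle mouse 3 (adjusted p = 0.0011), -1.05 without LPS-CPD-4645 mouse 1 (adjusted p = 0.002) and -1.17 without both (adjusted p = 0.00061), and then passed, as it did with limma-voom (-1.04, adjusted p = 0.00046). The level after CPD-4645 differed from sham-vehicle by 0.40 (SE 0.22, adjusted p = 0.16, 95% interval from -0.06 to 0.86). Of 1733 distinct windows of 75 bases, the read length, in *Fcgr3* transcripts, 94 also occur in *Fcgr2b* transcripts (5.42%), so a small share of reads could not be told apart between this pair.

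The inhibitory receptor *Fcgr2b* rose after LPS and fell after CPD-4645. Sham-vehicle mice had 2.57, 1.33, 2.31 and 2.12 CPM, LPS-vehicle mice 14.2, 16.4, 19.5, 8.38 and 11.3 CPM, and LPS-CPD-4645 mice 11.1, 6.26, 3.35 and 4.51 CPM. LPS-CPD-4645 mouse 1 lay within the LPS-vehicle range and the other 3 lay below it. The change after LPS was 2.72 on the log2 scale (SE 0.33, edgeR adjusted p = 9.7e-06), the change after CPD-4645 was -1.16 (SE 0.30, adjusted p = 0.0078), and LPS-CPD-4645 stayed above sham-vehicle by 1.56 (SE 0.34, adjusted p = 0.0014). Without LPS-CPD-4645 mouse 3 the fall was -0.94 (adjusted p = 0.029) and no longer reached 2-fold. An antisense gene, *Gm38204*, overlaps 155 exonic bases of *Fcgr2b*, and the strand setting used in counting is not stated, so reads there could have come from either.

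Because activating and inhibitory receptors share their ligand, the ratio of each activating receptor to *Fcgr2b* was taken within each mouse. The ratios are of CPM not divided by length, so they compare groups and their sign does not rank the genes. The log2 ratio of *Fcgr4* to *Fcgr2b* was -2.84 ± 0.67 (SD, n = 4) in sham-vehicle, -0.53 ± 0.25 (n = 5) in LPS-vehicle and 0.22 ± 0.75 (n = 4) in LPS-CPD-4645 mice. It ran from -3.69 to -2.04 in sham-vehicle, from -0.85 to -0.22 in LPS-vehicle and from -0.77 to 1.05 in LPS-CPD-4645 mice. The sham-vehicle mice thus lay apart from both other groups. Their *Fcgr4* counts were 20, 3, 7 and 2, and the prior count of 2 added before logs drew their ratios towards 0. These ratios and the differences from them are therefore approximate. LPS-vehicle exceeded sham-vehicle by 2.31 (p = 0.0159 by an exact permutation test, two-sided, which is the minimum for 4 against 5 mice). LPS-CPD-4645 exceeded sham-vehicle by 3.06 (exact p = 0.0286, the smallest for 4 against 4) and LPS-vehicle by 0.75 (exact p = 0.0794). The ratio of *Fcgr3* to *Fcgr2b* moved the other way, from 1.70 ± 0.63 (n = 4) in sham-vehicle to 0.32 ± 0.66 (n = 5) in LPS-vehicle mice without overlap, a difference of -1.38 (exact permutation p = 0.0159). It was 0.67 ± 0.61 in the 4 LPS-CPD-4645 mice, whose values overlapped with those of both other groups. The ratio of *Fcgr1* to *Fcgr2b* was 1.01 ± 0.68, 0.10 ± 0.90 and 0.93 ± 0.62 in the 3 groups, which overlapped. After adjustment over the 15 ratio tests run, the lowest adjusted p was 0.0858 (exact permutation tests), so none of the 15 differences passed. Without LPS-CPD-4645 mouse 1 the *Fcgr4* to *Fcgr2b* ratio exceeded that of LPS-vehicle by 1.08 (exact permutation p = 0.0357, unadjusted).

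**Figure D2:**
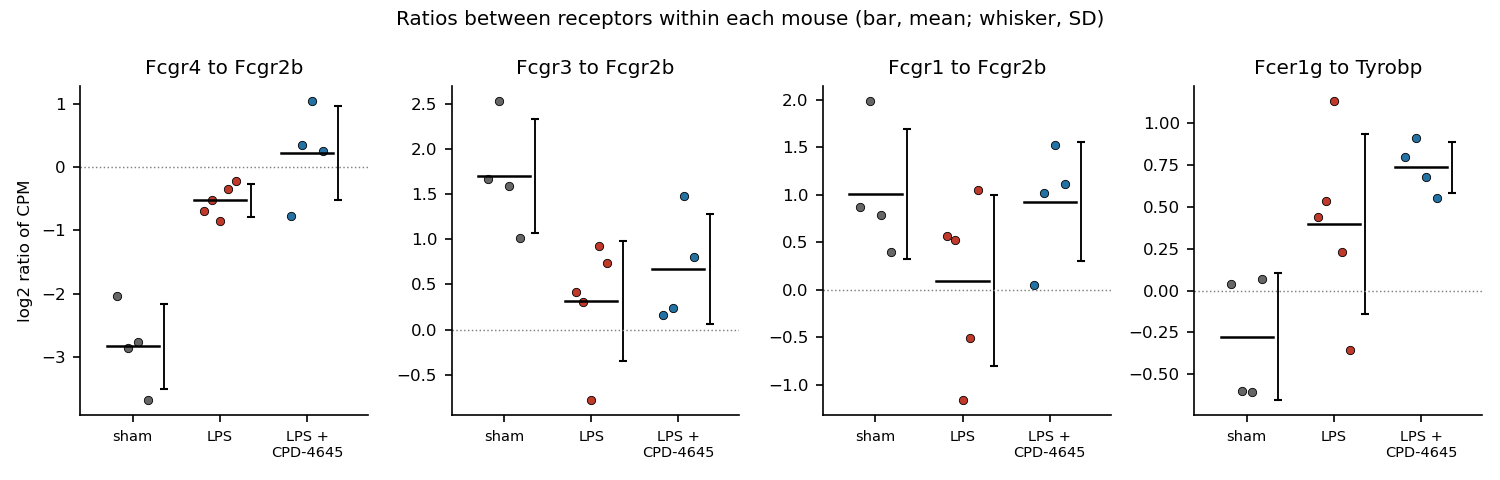
Log2 ratio of the CPM of 2 genes within each mouse (vertical axes, prior count of 2) for 4 pairs of genes by group. Each point is 1 mouse, the bar is the mean and the whisker the SD. The dotted line marks equal CPM, which is not divided by length and so does not mean equal levels. The *Fcgr4* to *Fcgr2b* ratio lies below -2 in all 4 sham-vehicle mice and above -1 in the 9 LPS-treated mice.

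*Fcer1g*, the chain through which the activating Fc gamma receptors, *Clec4d* and *Clec4e* signal, rose with them. Sham-vehicle mice had 11.6, 8.97, 7.77 and 5.33 CPM, LPS-vehicle mice 37.7, 38.8, 40.3, 23.4 and 26.9 CPM, and LPS-CPD-4645 mice 26.5, 20.3, 14.7 and 13.1 CPM. The rise was 1.97 on the log2 scale (SE 0.24, edgeR adjusted p = 9e-06), or 3.92-fold. LPS-CPD-4645 mouse 1 overlapped with the LPS-vehicle range and the other 3 lay below it. LPS-CPD-4645 differed from LPS-vehicle by -0.85 (SE 0.23, adjusted p = 0.009), which is under 2-fold, and by -1.04 without LPS-CPD-4645 mouse 1 (adjusted p = 0.0033), which passed. It was higher than sham-vehicle by 1.13 (SE 0.24, adjusted p = 0.0014). This last difference was 0.98 without sham-vehicle mouse 4 (adjusted p = 0.005) and 0.93 without LPS-CPD-4645 mouse 1 (adjusted p = 0.0059), both under 2-fold.

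*Tyrobp*, the other ITAM adaptor, was the member nearest to its sham level after CPD-4645. Sham-vehicle mice had 11.3, 13.6, 11.9 and 5.09 CPM, LPS-vehicle mice 27.8, 26.8, 18.4, 19.96 and 34.4 CPM, and LPS-CPD-4645 mice 15.3, 10.8, 9.15 and 8.91 CPM. All 4 LPS-CPD-4645 mice lay below all 5 LPS-vehicle mice, and 3 of them lay inside the range of the sham-vehicle mice. *Tyrobp* rose by 1.29 on the log2 scale after LPS (SE 0.24, edgeR adjusted p = 0.00095), fell by 1.23 after CPD-4645 (SE 0.25, adjusted p = 0.0012) and differed from sham-vehicle by 0.06 thereafter (SE 0.26, adjusted p = 0.89, 95% interval from -0.48 to 0.59). The fall passed in all 21 alternatives, with values from -1.502 to -1.10. The log2 ratio of *Fcer1g* to *Tyrobp* was -0.27 ± 0.38 (SD, n = 4) in sham-vehicle, 0.39 ± 0.54 (n = 5) in LPS-vehicle and 0.73 ± 0.15 (n = 4) in LPS-CPD-4645 mice. LPS-CPD-4645 and sham-vehicle mice did not overlap in it and differed by 1.01 (exact permutation p = 0.0286, adjusted p = 0.0858). LPS-vehicle exceeded sham-vehicle in it by 0.86 without LPS-vehicle mouse 5, and LPS-CPD-4645 exceeded LPS-vehicle by 0.52 without LPS-vehicle mouse 3, each with an exact permutation p of 0.0286 before adjustment.

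**Figure D3:**
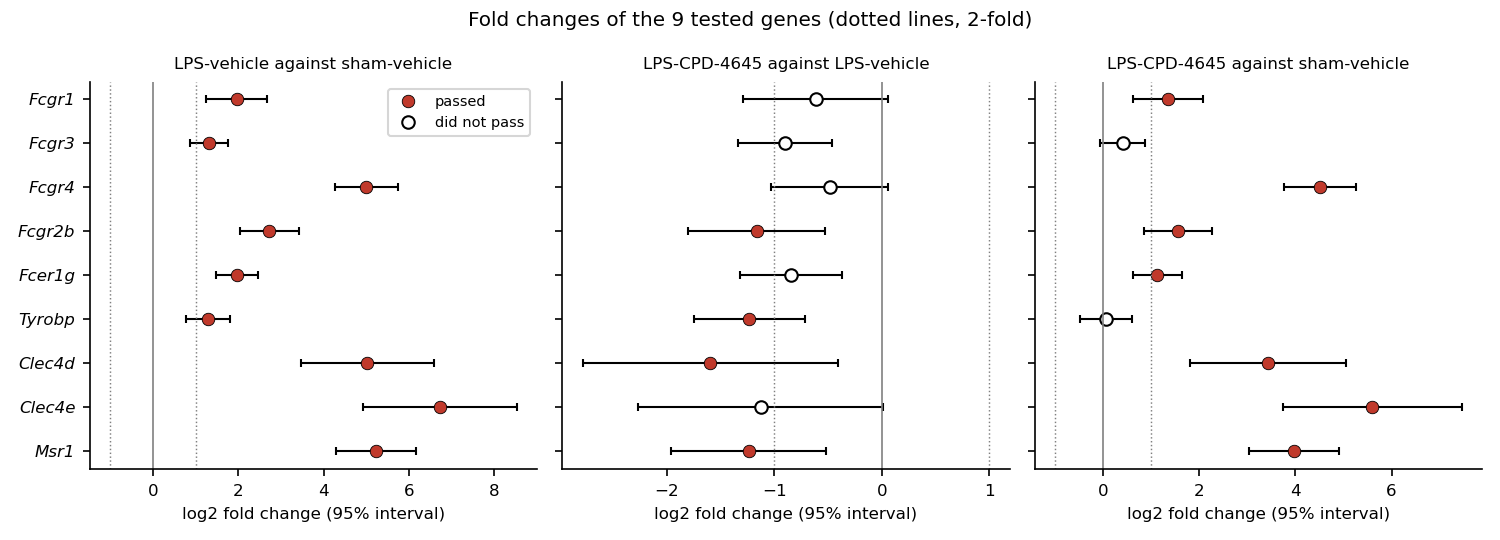
Log2 fold change (horizontal axes) of the 9 tested genes in each of the 3 comparisons, with 95% intervals from edgeR; filled points passed the threshold, open points did not, and dotted lines mark 2-fold. All points lie right of 0 in the first panel and left of 0 in the second, and *Tyrobp* and *Fcgr3* have intervals that include 0 in the third.

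*Clec4e* and *Clec4d* were close to absent without LPS. *Clec4e* had 4, 0, 1 and 0 counts and *Clec4d* 2, 6, 1 and 0 counts in the 4 sham-vehicle libraries. LPS-vehicle mice had 3.98, 8.86, 11.1, 2.96 and 0.745 CPM of *Clec4e* and 3.06, 4.50, 4.92, 1.12 and 1.31 CPM of *Clec4d*. LPS-CPD-4645 mice had 3.08, 3.15, 1.43 and 2.24 CPM of *Clec4e* and 1.502, 1.40, 0.301 and 0.746 CPM of *Clec4d*. In both genes LPS-vehicle mice 2 and 3 were highest, and the LPS-treated groups overlapped, since LPS-vehicle mouse 5 had less *Clec4e* than any LPS-CPD-4645 mouse. The rises after LPS were 6.72 for *Clec4e* (SE 0.86, edgeR adjusted p = 1.7e-05) and 5.02 for *Clec4d* (SE 0.74, adjusted p = 8.3e-05) on the log2 scale, and their size rests on 5 and 9 counts in all over the sham-vehicle libraries. Without sham-vehicle mouse 1 the *Clec4e* rise was 8.16, and without sham-vehicle mouse 2 the *Clec4d* rise was 6.15.

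After CPD-4645 *Clec4d* fell by 1.59 on the log2 scale (SE 0.57, edgeR adjusted p = 0.04), and *Clec4e* differed by -1.13 (SE 0.54, adjusted p = 0.12, 95% interval from -2.27 to 0.01). The *Clec4d* fall did not pass without LPS-vehicle mouse 1 (-1.58, adjusted p = 0.068), mouse 2 (-1.37, 0.11) or mouse 3 (-1.38, 0.08), nor without LPS-CPD-4645 mouse 2 (-1.86, 0.051), mouse 3 (-1.27, 0.11) or mouse 4 (-1.47, 0.1). For *Clec4e* the difference passed without LPS-vehicle mouse 5 (-1.42, adjusted p = 0.019), and with limma-voom it was -0.64 (adjusted p = 0.46). Both genes stayed above sham-vehicle, *Clec4e* by 5.60 (SE 0.89, edgeR adjusted p = 8.6e-05) and *Clec4d* by 3.43 (SE 0.78, adjusted p = 0.002). Without sham-vehicle mouse 1 the former was 7.03, and without sham-vehicle mouse 2 the latter was 4.56. With limma-voom neither passed against sham-vehicle (*Clec4e* 5.69, adjusted p = 0.05 after rounding down, and *Clec4d* 3.43, adjusted p = 0.063). The log2 ratio of *Clec4e* to *Clec4d* was -0.40 ± 1.18 (SD, n = 4) in sham-vehicle, 0.62 ± 0.85 (n = 5) in LPS-vehicle and 1.41 ± 0.45 (n = 4) in LPS-CPD-4645 mice. LPS-CPD-4645 and sham-vehicle mice did not overlap in it and differed by 1.81 (exact permutation p = 0.0286, adjusted p = 0.0858), while LPS-vehicle mice overlapped with both and differed from sham-vehicle by 1.02 (exact p = 0.19) and from LPS-CPD-4645 by 0.79 (exact p = 0.127). Sham-vehicle mouse 4 had 0 counts of both genes, so its log2 ratio of 0 was set by the prior count of 2 alone. The other sham-vehicle ratios rest on the few counts given above and on that prior. The tests of this ratio against sham-vehicle therefore cannot show whether it changed.

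*Clec7a* was at or near 0 in most libraries. It had 22 counts in sham-vehicle mouse 2, 24 in LPS-vehicle mouse 2, 3 in LPS-vehicle mouse 4 and 2 in LPS-CPD-4645 mouse 4, and 0 in the other 9 libraries, which allows up to 3 counts in each. In the highest of these, sham-vehicle mouse 2, that was 0.885 CPM. It was not compared between groups.

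*Msr1*, the class A scavenger receptor, rose after LPS and fell after CPD-4645, and the 3 groups of mice stood apart in it. Sham-vehicle mice had 1.60, 0.885, 0.239 and 0.247 CPM, LPS-vehicle mice 34.9, 23.6, 45.2, 24.7 and 22.8 CPM, and LPS-CPD-4645 mice 20.95, 13.3, 10.54 and 6.67 CPM. Every LPS-vehicle mouse was above every LPS-CPD-4645 mouse, and all of these were above sham. The change was 5.21 on the log2 scale after LPS (SE 0.45, edgeR adjusted p = 1.8e-07), or 37.1-fold, and -1.24 after CPD-4645 (SE 0.34, adjusted p = 0.011). LPS-CPD-4645 mice remained above sham-vehicle by 3.98 (SE 0.45, adjusted p = 2.7e-06), or 15.8-fold. Without sham-vehicle mouse 1, which held 56 of the 89 sham-vehicle counts, these differences from sham-vehicle were 5.99 after LPS and 4.75 with CPD-4645. With DESeq2 the fall was -1.225 with an adjusted p of 0.051.

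Levels can be compared between genes only per length, here as CPM per kilobase of exon. In sham-vehicle mice the order was *Tyrobp* (18.5 ± 6.58, SD, n = 4), *Fcer1g* (11.25 ± 3.47), *Fcgr3* (5.15 ± 1.34), *Fcgr1* (1.65 ± 0.44), *Fcgr2b* (0.547 ± 0.140), *Fcgr4* (0.213 ± 0.173) and *Msr1* (0.185 ± 0.161), with the lectins below. The intervals of mean ± SD overlapped for *Tyrobp* and *Fcer1g*, and for *Fcgr4* and *Msr1*. In LPS-vehicle mice the adaptors *Tyrobp* (45.2 ± 11.5, n = 5) and *Fcer1g* (44.7 ± 10.3) were level with each other and above *Fcgr3* (12.7 ± 2.65). *Msr1* (7.55 ± 2.42), *Fcgr4* (7.52 ± 1.53) and *Fcgr1* (6.39 ± 3.31) came next with intervals that overlapped, and *Fcgr2b* (3.66 ± 1.14), *Clec4d* (2.25 ± 1.33) and *Clec4e* (2.20 ± 1.71) followed, each with an interval that overlapped that of the one before. In LPS-CPD-4645 mice *Fcer1g* (24.9 ± 8.12, n = 4) stood above *Tyrobp* (19.5 ± 5.22) with overlapping intervals. *Fcgr3* (6.90 ± 1.68), *Fcgr4* (5.35 ± 0.87), *Fcgr1* (4.23 ± 0.55), *Msr1* (3.21 ± 1.51) and *Fcgr2b* (1.65 ± 0.89) followed well below the adaptors, and the interval of each of the last 4 overlapped that of the one before, although most of these means lay outside it.

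The genes around the members in their pathway were taken as 6 further lists. Over all genes tested, 4.68% rose and 0.995% fell after LPS, with a median of -0.00065 on the log2 scale. After CPD-4645 4.19% fell and 1.70% rose, with a median of -0.023. Of the 21 kinases, adaptors and lipid enzymes below the ITAM, all of them tested, 8 rose after LPS and none fell, and after CPD-4645 1 fell (*Pik3cg*, -1.10, edgeR adjusted p = 0.02) and none rose. The 1 fall in 21 is near the share over all genes. The medians of this list on the log2 scale were 0.82 and -0.40. The number that fell after CPD-4645 was between 0 and 4 with 1 mouse left out, moving without LPS-vehicle mouse 1, 4 or 5 or mouse 1, 3 or 4 of the LPS-CPD-4645 group. *Pik3r5*, a regulatory subunit of PI3K gamma, went from 2.65 ± 0.29 CPM in sham-vehicle to 23.1 ± 8.502 CPM in LPS-vehicle mice, a rise of 3.11 (SE 0.25, edgeR adjusted p = 1.1e-07). The Src family kinase *Fgr* rose by 4.40 (SE 0.42, edgeR adjusted p = 6.5e-07) and *Syk* itself by 1.92 (SE 0.32, adjusted p = 0.0003). *Pik3cd* and the adaptor *Dok3* did not reach 2-fold in any comparison, with -0.67 (edgeR adjusted p = 0.0018) and -0.87 (adjusted p = 0.0024) after CPD-4645.

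Of 13 tested genes of inhibitory signalling, 7 rose after LPS and none fell, and after CPD-4645 3 fell and 1 rose, with medians of 1.18 and -0.54. The 1 that rose, *Cd300a* (1.43, SE 0.50, edgeR adjusted p = 0.038), did not pass without LPS-vehicle mouse 1, 4 or 5 or mouse 2, 3 or 4 of the LPS-CPD-4645 group. *Ptpn6* (SHP-1), a phosphatase recruited by inhibitory motifs, rose by 2.20 on the log2 scale (SE 0.18, edgeR adjusted p = 1.5e-07) and the receptor *Cd300lf* by 4.42 (SE 0.37, adjusted p = 1.5e-07). *Siglece*, an inhibitory sialic acid receptor, went from 0.591 ± 0.250 CPM in sham-vehicle to 9.74 ± 5.71 CPM in LPS-vehicle and 2.04 ± 1.07 CPM in LPS-CPD-4645 mice, a fall of 2.27 (SE 0.47, edgeR adjusted p = 0.0014). *Ptpn11* (SHP-2) was 0.47 higher after CPD-4645 (SE 0.10, adjusted p = 0.002), under 2-fold.

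The other receptors that use *Tyrobp* or *Fcer1g* did not move as one. Of 7 tested, among them the adaptor *Hcst* (DAP10), which is itself no receptor, 2 rose (*Trem1*, *Trem3*) and 2 fell (*Trem2*, *Siglech*) after LPS, and 1 rose and 1 fell after CPD-4645, with medians of 0.58 and -0.91 on the log2 scale. These counts are fragile. With 1 mouse left out, 1 in place of 2 rose after LPS for every mouse but sham-vehicle mouse 2 and LPS-vehicle mice 4 and 5, and 1 in place of 2 fell without sham-vehicle mouse 2 or 3 or LPS-vehicle mouse 2, 3 or 4. After CPD-4645 2 fell without LPS-vehicle mouse 2 or 3 or mouse 3 of the LPS-CPD-4645 group. *Trem1*, known from neutrophils and monocytes, rose by 5.67 after LPS (SE 0.58, edgeR adjusted p = 1.5e-06) and fell by 1.94 after CPD-4645 (SE 0.42, adjusted p = 0.0022). *Siglech*, a marker of microglia, fell by 3.18 after LPS (SE 0.28, adjusted p = 2.3e-07) and was 1.68 higher in LPS-CPD-4645 than in LPS-vehicle mice (SE 0.28, adjusted p = 0.00029). *Trem2*, which signals through *Tyrobp*, went from 11.1 ± 2.43 CPM in sham-vehicle to 4.86 ± 3.22 CPM in LPS-vehicle and 2.66 ± 0.57 CPM in LPS-CPD-4645 mice. Its log2 change was -1.15 after LPS (SE 0.35, edgeR adjusted p = 0.027). The difference after CPD-4645 was -0.91 (SE 0.38, edgeR adjusted p = 0.075) and did not pass.

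Among 9 other tested C-type lectin receptors, 4 rose after LPS (*Clec4a1*, *Clec4a2*, *Clec4a3* and *Clec5a*) and none fell, with a median of 1.65 on the log2 scale. After CPD-4645 only *Clec10a* fell (-1.65, SE 0.54, edgeR adjusted p = 0.026) and the median was -0.38. The number that fell after CPD-4645 was between 0 and 2 with 1 mouse left out, moving without sham-vehicle mouse 1, LPS-vehicle mouse 2 or mouse 1, 2 or 4 of the LPS-CPD-4645 group, and 1 gene fell after LPS without sham-vehicle mouse 1 or any 1 of the LPS-CPD-4645 mice. *Clec4a3* differed by -0.74 after CPD-4645 (SE 0.33, edgeR adjusted p = 0.094). *Clec4a1* rose by 3.83 (SE 0.36, edgeR adjusted p = 5.1e-07) and differed by 0.37 after CPD-4645 (SE 0.28, adjusted p = 0.35), with *Clec4a2* at 2.47 (SE 0.28, adjusted p = 5.5e-06) and 0.14 (SE 0.25, adjusted p = 0.71). Of 17 scavenger receptors, 6 rose after LPS and none passed after CPD-4645, with medians of 0.72 and -0.24, although 1 fell after CPD-4645 without LPS-vehicle mouse 2 or 3. *Marco* rose by 5.77 (SE 0.67, edgeR adjusted p = 6.1e-06), and *Cxcl16*, a scavenger receptor that is also a chemokine, by 3.61 (SE 0.23, adjusted p = 1.3e-08). After CPD-4645 *Cxcl16* differed by -0.86 (SE 0.20, edgeR adjusted p = 0.0035) and *Scarb2*, a lysosomal protein, by 0.48 (SE 0.08, adjusted p = 0.00022), both under 2-fold.

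Other Fc receptors were mostly too low to test. Of the 4 that were tested, *Trim21*, the cytosolic antibody receptor, rose after LPS by 1.53 on the log2 scale (SE 0.34, edgeR adjusted p = 0.0034) and none passed after CPD-4645, with medians of -0.26 and 0.05. *Fcgrt*, the neonatal Fc receptor, differed by -0.76 after LPS (SE 0.20, adjusted p = 0.01), under 2-fold, and was lower in LPS-CPD-4645 than in sham-vehicle mice by 1.12 (log2 change -1.12, SE 0.21, adjusted p = 0.00049). The number of these genes lower in that comparison was between 0 and 2 with 1 mouse left out, moving without sham-vehicle mouse 2, LPS-vehicle mouse 3 or mouse 3 of the LPS-CPD-4645 group. After CPD-4645 *Fcgrt* differed by -0.35 (SE 0.20, edgeR adjusted p = 0.2) and *Trim21* by 0.46 (SE 0.31, adjusted p = 0.28).

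Without the 2 shallowest libraries, 1 of the receptors that use *Tyrobp* or *Fcer1g* rose and 1 fell after LPS, and 1 of the other C-type lectin receptors fell. After CPD-4645 the number that fell was then 2 for each of these lists and for signalling below the ITAM, and 1 for the scavenger receptors. Between LPS-CPD-4645 and sham-vehicle mice 2 of the other Fc receptors were then lower.

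**Figure D4:**
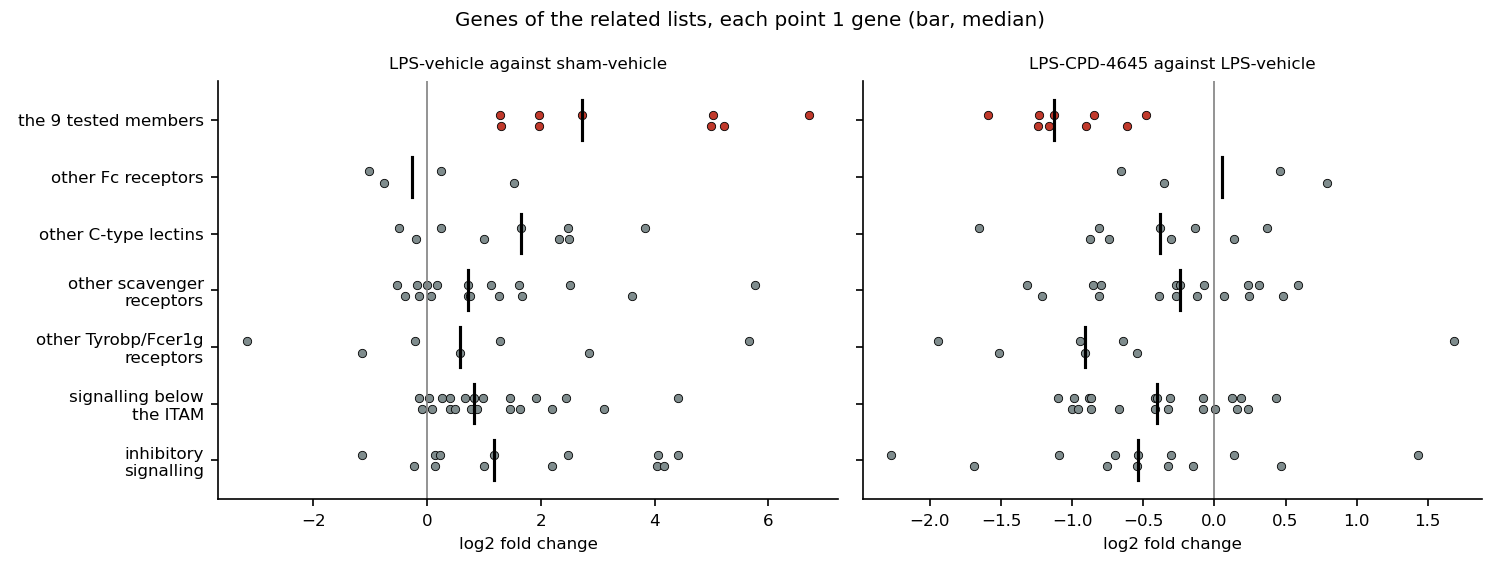
Log2 fold change (horizontal axes) of the 9 tested members and of the tested genes in the 6 related lists, after LPS at left and after CPD-4645 at right; each point is 1 gene and the bar is the list's median. The members' median is 2.72 at left and -1.13 at right, beyond the medians of the 6 lists in both panels.

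Marker genes of several myeloid cell types moved with these results. The shares over all genes to set beside their counts are those given above for the related lists. The summed level of 10 neutrophil markers was between 3.65 and 11.2 CPM in sham-vehicle, between 72.6 and 290.0 CPM in LPS-vehicle and between 7.94 and 28.5 CPM in LPS-CPD-4645 mice, and of 9 tested 8 rose after LPS and all 9 fell after CPD-4645. *Ly6g* was too low to test. The sum of 9 monocyte markers ran from 49.6 to 68.1, from 55.3 to 122 and from 41.0 to 68.1 CPM in the same groups, with 6 of 8 tested higher after LPS and 3 lower after CPD-4645, and *Ccr2* was too low to test. That sum is mostly *Fn1* and *Vcan*, which passed in no comparison, whereas *Chil3* had means of 0.184, 7.84 and 1.37 CPM and *Ms4a4c* of 0.0299, 1.58 and 0.193 CPM in the 3 groups. The 10 perivascular macrophage markers summed to between 14.6 and 18.6, between 31.0 and 54.3 and between 15.1 and 25.0 CPM, with 4 of 8 tested higher and 2 lower, while *Cd209f* was at 0 in the LPS-CPD-4645 mice. The rise in that sum is mostly *Stab1* (means of 7.69, 24.2 and 14.1 CPM) and *Lyve1* (1.14, 7.46 and 1.39 CPM). The means of *Mrc1*, *Pf4*, *Cbr2*, *Ms4a7*, *Cd209f* and *Folr2* were lower in LPS-vehicle than in sham-vehicle mice, and none of these passed. The 12 pan-myeloid markers summed to between 196 and 270.0, between 266 and 391 and between 201 and 251 CPM, with 8 higher and 5 lower. The 10 microglia markers went down, from between 214 and 283 to between 127 and 232 and then between 128 and 154 CPM, with 6 lower after LPS and *Siglech* alone higher after CPD-4645. Markers of other cells also differed between groups in their sums. The 7 erythrocyte markers summed to between 468 and 958 CPM in sham-vehicle, between 239 and 461 CPM in LPS-vehicle and between 325 and 706 CPM in LPS-CPD-4645 mice, so that sham-vehicle lay above LPS-vehicle, though none of the 4 tested passed in any comparison. Neuron markers ran from 10200 to 11800, from 8470 to 9410 and from 9070 to 11600 CPM with none of 10 passing, and astrocyte markers from 1730 to 2210, from 2330 to 3000 and from 2150 to 2770 CPM with 2 of 10 higher after LPS. Of the 10 endothelial markers 2 rose (*Cdh5*, *Ly6c1*) and 2 fell (*Tek*, *Slco1a4*) after LPS and none passed after CPD-4645. Of the 10 pericyte and smooth muscle markers 3 fell after LPS (*Acta2*, *Tagln*, *Myh11*) and 1 after CPD-4645 (*Cspg4*). The mitochondrial share of counts was between 6.47% and 12.71% in sham-vehicle, between 4.84% and 7.05% in LPS-vehicle and between 3.97% and 8.17% in LPS-CPD-4645 mice. The part that these cell types and the mitochondrial share play in the changes of the receptors was not tested.

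**Figure D5:**
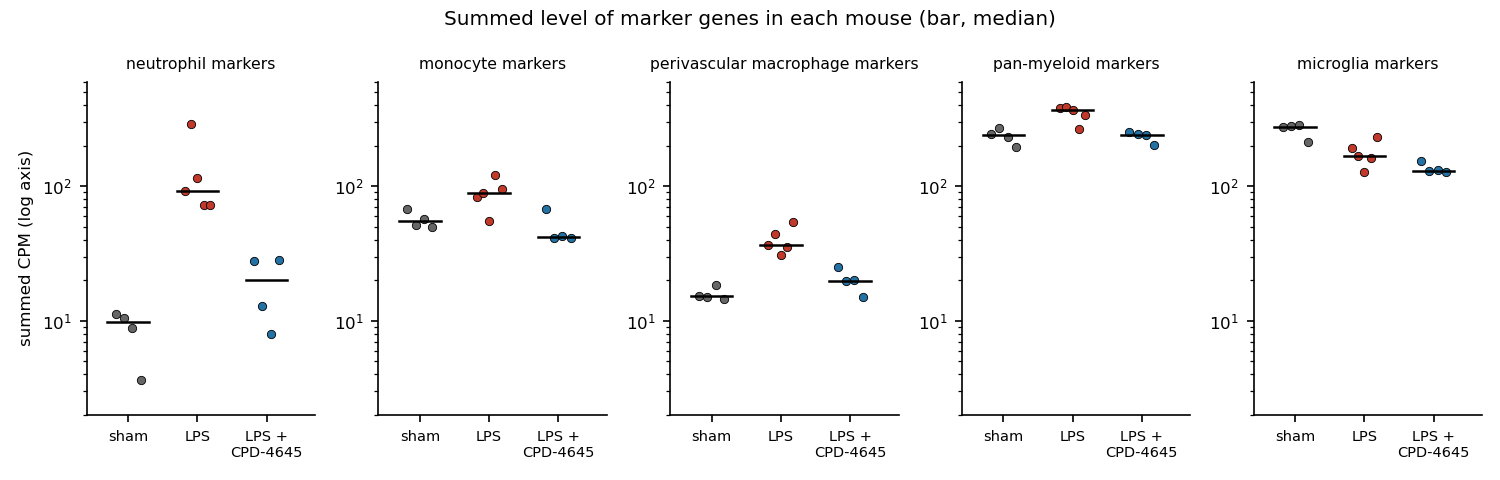
Summed CPM of the marker genes of 5 myeloid cell types (vertical axes, logarithmic) in each of the 13 mice by group; each point is 1 mouse and the bar is the group median. The 5 LPS-vehicle mice have from 72.6 to 290.0 CPM of neutrophil markers, above every mouse of the other groups.

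For each member the gene with the nearest profile over the 13 mice was found, as the root mean square distance between log2 CPM values centred on each gene's mean. The smallest raw distances were those of *Fcgr3* to *Pnpla7* (0.23 on the log2 scale, where the median distance to all genes was 0.73), *Fcer1g* to *Ggta1* (0.25 against 0.97) and *Tyrobp* to the kinase *Btk* (0.28 against 0.82). *Fcgr1* was nearest to the interferon-induced gene *Rnf213* (0.40 against 1.001), *Fcgr2b* to *Apod* (0.40 against 1.26) and *Fcgr4* to *Tmem252* (0.44 against 2.30). *Clec4e* was nearest to *Ch25h* (0.52 against 2.52), *Msr1* to *Saa3* (0.54 against 2.485) and *Clec4d* to the complement gene *C3* (0.63 against 1.99). Set against their medians, the distances of *Fcgr4*, *Clec4e* and *Msr1* were smaller than that of *Fcgr3*. No member was the nearest profile of another.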

How the data were processed

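Per the labels and the methods, reads were demultiplexed with bcl2fastq 2.15.0.4 and aligned with STAR 2.5.2a to GRCm38 (mm10), and the authors deposited raw counts per gene (GENCODE M9 basic annotation); the strand setting used in counting is not given in the sources used here. Counts were normalized by TMM and fitted for all 13 mice without covariates by edgeR 4.0.16 in R 4.3.3, after filterByExpr (minimum count 10, minimum total 15) kept 17285 of 27934 genes with any count. The scripts were tested on simulated data. Ratios were compared with exact permutation tests on log2 CPM with a prior count of 2. Alternatives were limma-voom (limma 3.58.1, the test of the study), DESeq2 1.42.0, its size factors in edgeR, other filters, fits restricted to the compared groups, a prior count of 0.5 for the ratios, a replicate block, and each mouse left out. Members, lists and tests were chosen with earlier results of these data known. Named genes of the lists are the 2 with the lowest adjusted p after LPS and after CPD-4645, and *Pik3cg*, *Syk*, *Trem2*, *Trem3*, *Clec5a* and *Cd300a* were added once their values were known. Samples numbered alike did not deviate together (r from -0.035 to 0.114). Counting error weighs most on *Clec7a* and on the lectins in sham-vehicle mice.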

Additional observations from a re-analysis of the deposited data

Results flagged for a closer look

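*Clec7a* was picked in all 3 groups by the gap between its highest mouse and the next, as a share of the group's range. The share was 1.0 in sham-vehicle mice, where mouse 2 had 0.885 CPM and the other 3 had 0, and 1.0 in LPS-CPD-4645 mice, where mouse 4 had 0.0785 CPM from 2 counts. A share of 1.0 follows from the other mice being at 0, whatever the level of the highest, and 2 counts are within the 3 that a count of 0 allows, so LPS-CPD-4645 mouse 4 cannot be said to differ from its group. In LPS-vehicle mice the share was 0.809, with 0.431 CPM in mouse 2. These were the 3 cases among 45 groups examined, and about 1 in 20 groups is picked by chance. The cause was not tested.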

How the results depend on the processing

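Counting each member, comparison and alternative as a case, the call was kept in 541 cases, lost in 15 and gained in 7. No called change turned direction, and *Tyrobp* in LPS-CPD-4645 against sham-vehicle mice, which passed in none, ran from -0.15 to 0.21 on the log2 scale. The rises after LPS passed in every alternative that tested the gene. With genes kept only at a mean count of 50 or more, *Clec4d* was not tested, 113 genes in all fell after LPS (172 otherwise) and 123 rose after CPD-4645 (294 otherwise). 13860 genes were then tested in place of 17285, and how much of the drop this makes up was not tested. *Clec4d* was also not tested against sham-vehicle in the fit of LPS-CPD-4645 and sham-vehicle mice alone. The number of members that fell after CPD-4645 was between 2 and 6 over the mice left out in turn, with the 2 seen without LPS-CPD-4645 mouse 3. Under limma-voom 5 members stayed above sham-vehicle after CPD-4645, without *Clec4d* (3.43, adjusted p = 0.063) and *Clec4e* (5.69, adjusted p = 0.05 after rounding down), and *Clec4d* did not pass against LPS-vehicle (adjusted p = 0.061). The replicate block, fitted although mice of the same number share only that number, gave 9, 5 and 7 member calls in the 3 comparisons, the added one being *Clec4e* after CPD-4645 (-1.30, adjusted p = 0.038). The counts over the 6 related lists moved by more than 1.5 times in 80 cases and did not in 676. Leaving out the 2 shallowest libraries was chosen after the data had been seen. An exact permutation test of 4 against 3 mice cannot go below 0.0571, so ratio tests of that size say nothing about stability.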
